A study of Mus musculus with 15 samples.

Results

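In haematopoietic stem cells (HSC) sorted from adult mice, 430 of 32764 merged regions held an ATAC-seq peak in the wild-type control (WT) and in the mTOR knockout (KO) and none in the mTOR knock-in (KI). The members were chosen by these measured peaks: the 3 deposited peak lists were merged wherever peaks overlapped or touched, and regions with a WT peak, a KO peak and no KI peak were kept. The lowest score was 50 in each list. A missing KI peak therefore means that no KI signal there was listed at that score, and does not show that the chromatin was closed.

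The WT library came from Mx1-Cre-/-;mTORflox/flox mice, the KO library from Mx1-Cre+/-;mTORflox/flox mice and the KI library from Mx1-Cre+/-;mTORflox/knockin mice, all given poly(I:C). The Mx1 promoter responds to interferon and so to poly(I:C), and it drives Cre in blood cells and in other tissues that respond to interferon. KO and KI carried Cre and WT did not. By their labels WT and KO were re-analysed and KI was not, so for all 430 regions a difference in handling cannot be told apart from genotype. Each genotype had 1 library with no replicate, the number of mice behind it is not given in the sources used here, and no p-value is given. In sorted bulk cells, fewer cells of a type and less accessibility per cell cannot be told apart.

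ATAC-seq inserts sequencing adapters into accessible DNA with a transposase, and a peak marks a place where insertions pile up. Such places are the promoters of active or poised genes and the enhancers that lie within or between genes. mTOR is the kinase of a pair of complexes: mTORC1, which drives translation and restrains autophagy, and mTORC2, which activates kinases of the AKT and protein kinase C families. In HSC the pathway is known for its part in the balance between quiescence and growth. The series title asks which roles of mTOR do not need its kinase activity, and regions with peaks in WT and KO set the KI library apart from both.

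Of the 56 promoter windows of RefSeq (GRCm38.p6, the assembly behind mm10) that overlapped a member, 5 are shown as examples, picked after their values were seen. H2-D1 had the only such window among the 6 highest-ranked members. Stat5b, Ldb1, Gbp2 and Tfec are 4 of the list genes with an annotated start under a member. At Stat5b and Ldb1 this was an inner start, farther than 1 kb from either end of the gene. Each line holds the 250 bases before the annotated start, 5′ to 3′ on the gene's strand. Capitals mark, on either strand, the letters CCAAT (bound by NF-Y), GGGCGG (SP and KLF factors), TATAAA (the TATA box), TGTGGT (RUNX factors) and TGANTCA (AP-1).
H2-D1, chr17:35262844-35263093, plus strand: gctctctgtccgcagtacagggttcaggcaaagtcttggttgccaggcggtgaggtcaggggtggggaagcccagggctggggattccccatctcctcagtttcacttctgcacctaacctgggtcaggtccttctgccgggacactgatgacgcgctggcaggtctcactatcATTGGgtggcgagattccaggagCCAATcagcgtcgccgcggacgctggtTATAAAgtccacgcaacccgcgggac
Stat5b, chr11:100850582-100850831, minus strand: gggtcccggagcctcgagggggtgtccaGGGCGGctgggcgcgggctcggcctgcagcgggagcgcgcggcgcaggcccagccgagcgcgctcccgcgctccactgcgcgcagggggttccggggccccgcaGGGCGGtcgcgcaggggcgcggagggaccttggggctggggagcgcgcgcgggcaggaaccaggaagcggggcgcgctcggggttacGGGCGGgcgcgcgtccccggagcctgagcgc
Ldb1, chr19:46039622-46039871, minus strand: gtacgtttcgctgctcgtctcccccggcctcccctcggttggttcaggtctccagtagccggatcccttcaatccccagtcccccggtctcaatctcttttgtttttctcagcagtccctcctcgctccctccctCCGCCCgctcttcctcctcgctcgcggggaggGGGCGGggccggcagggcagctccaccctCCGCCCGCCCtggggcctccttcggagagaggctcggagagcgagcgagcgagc
Gbp2, chr3:142620413-142620662, plus strand: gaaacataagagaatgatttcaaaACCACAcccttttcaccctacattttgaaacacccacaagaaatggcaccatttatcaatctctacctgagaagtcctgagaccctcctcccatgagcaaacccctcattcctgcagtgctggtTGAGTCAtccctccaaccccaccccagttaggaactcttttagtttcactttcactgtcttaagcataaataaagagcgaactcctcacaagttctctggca
Tfec, chr6:16898442-16898691, minus strand: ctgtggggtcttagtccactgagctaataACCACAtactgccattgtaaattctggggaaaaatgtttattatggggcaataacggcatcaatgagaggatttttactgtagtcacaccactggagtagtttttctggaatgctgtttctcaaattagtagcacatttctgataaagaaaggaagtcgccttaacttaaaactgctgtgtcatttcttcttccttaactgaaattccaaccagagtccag
The 5 stretches differ in base composition. G and C made up 82% of the Stat5b stretch and 68.4% of the Ldb1 stretch, against 60.8% at H2-D1, 44.4% at Gbp2 and 39.2% at Tfec. Base composition and motif did not go together throughout the windows under members: the Rab3c stretch, with 47.6% G and C, held GGGCGG as those of Stat5b and Ldb1 did, and the Unc5c stretch, with 71.2%, held TGTGGT and not GGGCGG.

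Regions of this kind were rare and weak. Of the 12712 regions with a WT and a KO peak, 430 (3.38%) had no KI peak. Regions that lacked KO alone numbered 2526, and those that lacked WT alone 3502. The list that members lack was also the longest, with 28391 peaks in KI against 17316 in WT and 19189 in KO. At equal list size 1094 regions lacked KI alone, so the rarity depends on list length. The WT score of the members ran from 50.2 to 412 with a median of 66.3, and the KO score from 50.1 to 144 with a median of 64.7. Regions with a peak in all 3 lists had medians of 123 in WT and 116 in KO. The score is the authors' own value for each peak, read as 10 times the negative log10 of a p-value, and was used within its own list only. Read depth is unknown, since the lists hold no read counts. By rank the median member stood 75.1% of the way down the WT list and 73.8% down the KO list. Taking the upper 50% of each list, 44 members were in that of WT, 58 in that of KO and 6 in both, while 334 were in the lower 50% of both. Their peaks were also narrower, with a median of 439 bp in WT and 398 bp in KO, against 678 and 627 bp in regions with a peak in all 3 lists.

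The share without a KI peak depended on rank, taken as the worse of the WT and KO ranks of a region. It was 11.4% (306 of 2684, 95% Wilson interval 10.3 to 12.7) in the lowest 25% and 3.84% (118 of 3072, 3.22 to 4.58) in the next band. It was 0.172% (6 of 3489, 0.0788 to 0.375) in the band above that. In the highest band 0 of 3467 regions lacked a KI peak, which allows a share of up to 0.0865%. These intervals, and all those below, cover counting error over regions and nothing else. Over both upper bands together the share was 0.0863% (6 of 6956). Since peaks chose the members, this pattern is a description of the choice and carries no test.

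**Figure D1:**
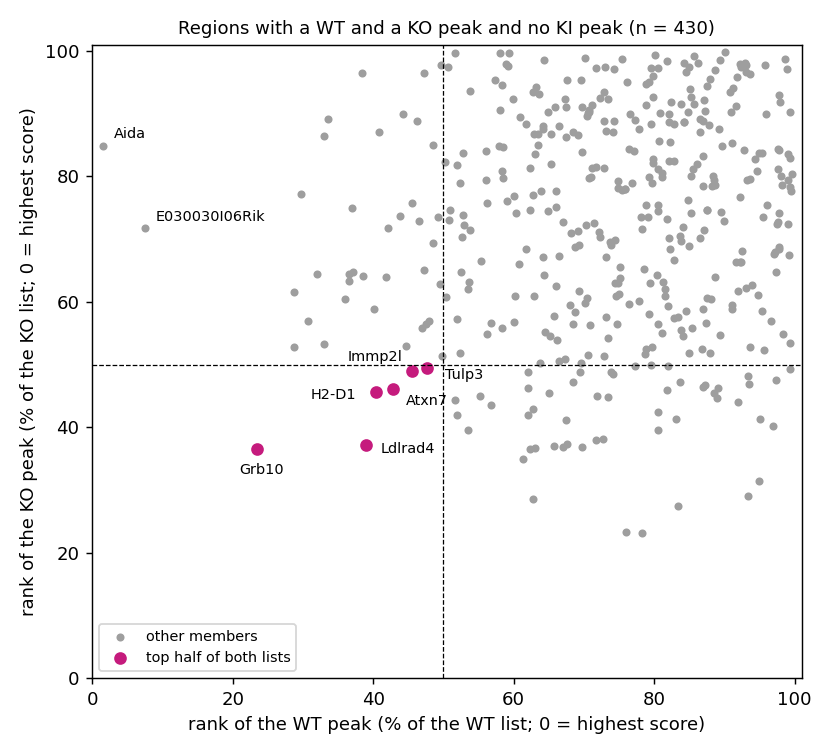
Rank of each of the 430 members in the WT list (x axis) and in the KO list (y axis), in percent of the list, where 0 is the highest score. The 6 members in the upper 50% of both lists are named, and most points lie in the upper right corner, where both ranks are low; Aida and E030030I06Rik ranked high in WT and low in KO.

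The highest-ranked member lay in Grb10, an imprinted gene for an adaptor protein that damps insulin receptor signalling and is phosphorylated by mTORC1. The region chr11:12025632-12026594 had a WT peak of score 160.87 (rank 4069) and a KO peak of score 108.4 (rank 7032), and the nearest KI peak lay 9785 bp away with a score of 62.55. The KO peak fell within the WT peak. The region lay inside the gene, 1377 bp downstream of its nearest annotated start.

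H2-D1 is a classical MHC class I gene that presents peptides to T cells. It was the only one of the 6 with a member at a start in the RefSeq promoter table, which gave none for Ldlrad4. Its region chr17:35262674-35263311 scored 113.12 in WT and 92.95 in KO, and the nearest KI peak was 3254 bp away with a score of 52.65. H2-D1 belongs to a family of close relatives, and short reads can be shared between copies, so its value is uncertain.

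The other four of these 6 lay in gene bodies. A region in Atxn7, which encodes a subunit of the SAGA chromatin complex, scored 107.71 in WT and 92.53 in KO, with a KI peak 19199 bp away. Tulp3, a gene for a ciliary trafficking adaptor, held a region of 98.37 and 88.12 with a KI peak 9585 bp away. In Ldlrad4, an inhibitor of TGF-beta signalling, and in Immp2l, a mitochondrial inner membrane peptidase, a KI peak lay close by without touching the region. The Ldlrad4 region (116.32 in WT, 107.62 in KO) had a KI peak of 58.14 at a distance of 223 bp. The Immp2l region (102.04 and 88.81) had one of 52.65 at 138 bp. Both adjoining KI peaks scored near the lowest value of their list.

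Around the limit of 50%, the values changed little. Tulp3 stood just inside, at 47.7% of the WT list and 49.4% of the KO list. Just outside came a region in the uncharacterised gene Gm32725 (49.8% and 51.4%), a further Immp2l region (51.6% and 44.3%) and the start of Tmem44 (52.0% and 42.0%). Immp2l thus held 2 members, and so did Csgalnact1, a chondroitin sulphate enzyme, the immunoglobulin heavy chain locus Igh, and Patl2.

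Members whose ranks differed widely between WT and KO were named after their values were seen. A region in Aida scored 412.31 in WT (rank 261) and 58.19 in KO, and a KI peak of 287.45 lay 535 bp away. A region in E030030I06Rik scored 267.05 in WT and 66.04 in KO. In the opposite direction, a region 251027 bp from Jun scored 63.9 in WT and 144.37 in KO, and one 17098 bp from Lamp2 scored 65.61 and 144.02. The top 25% of the WT list held 3 members, including Grb10, and the top 25% of the KO list held 2.

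Most members had no KI peak within 1 kb, but a minority bordered one. The distance to the nearest KI peak ran from 9 to 1311910 bp with a median of 14438 bp. A KI peak lay within 100 bp of 9 members, within 500 bp of 37 and within 1 kb of 45, and 169 had none within 20000 bp. Among the nearest were those at Plxnc1 (19 bp), a semaphorin receptor, and at Paip2 (34 bp), a repressor of translation. For comparison, the smallest KI overlaps among regions with a peak in all 3 lists were 15 bp at Gabpb1 and 18 bp at Samd4. When peaks up to 100 bp apart were merged, 420 of the 430 members remained. The WT and KO peaks themselves overlapped each other directly in all 430 members, by a median of 98.1% of the shorter peak.

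**Figure D2:**
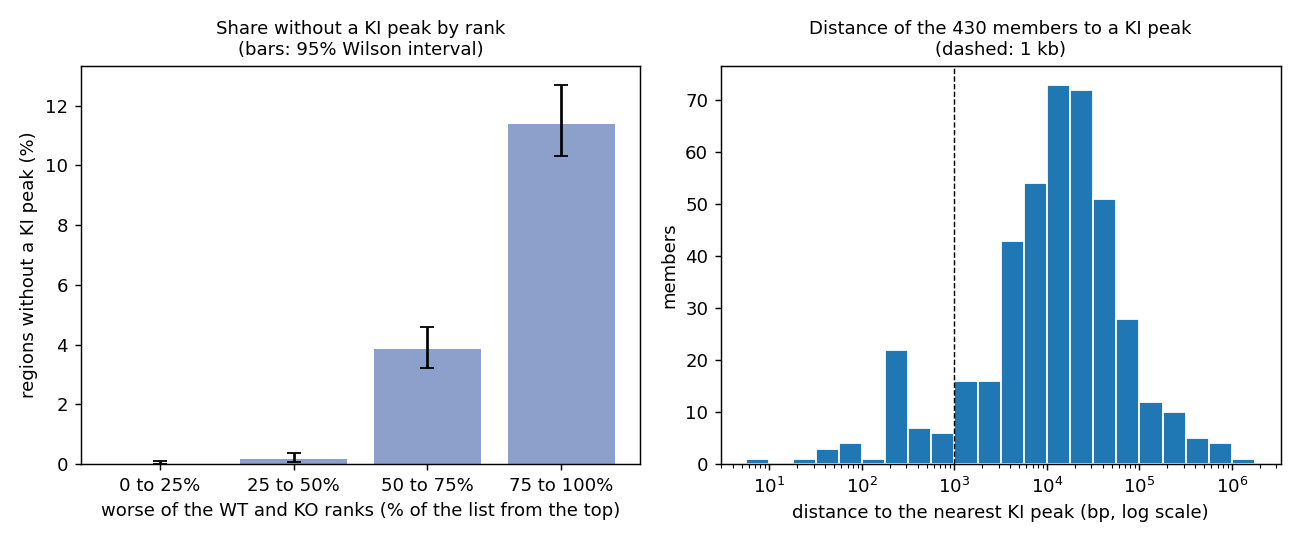
Left, the share of regions with a WT and a KO peak that had no KI peak, by the worse of their ranks in the WT and KO lists (bars, 95% Wilson intervals), rising from 0% to 11.4%. Right, the distance from each of the 430 members to the nearest KI peak on a log axis, with 45 members left of the dashed line at 1 kb.

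In place, the members were mostly distal. A region counted as at a gene end when it lay within 1 kb of either annotated end of a protein-coding gene. By that rule 81 members (18.8%, 15.4 to 22.8) were at a gene end, 183 (42.6%, 38 to 47.3) lay in a gene body and 166 (38.6%, 34.1 to 43.3) were intergenic. Regions with a peak in all 3 lists were at a gene end in 61.2% (60.3 to 62) of cases, and the difference of −42.3 percentage points had a 95% Newcombe interval of −45.9 to −38.3. Read the other way, 1.07% of gene-end regions with WT and KO peaks lacked a KI peak, against 6.57% in gene bodies and 7.12% between genes. Counted by annotated starts in the RefSeq promoter table, 72 members (16.7%, 13.5 to 20.6) lay within 1 kb of one. In regions with a peak in all 3 lists that share was 57.7% (56.8 to 58.5). That table is incomplete, with 32851 starts against 49943 genes used for names. It gave no start for any of the 18 members on chromosome 18, so shares by starts are too low by an unknown amount. Some of the 72, such as those at Stat5b and Ldb1, counted as in a gene body by the rule above.

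The difference in place was also present within bands of rank. In the lowest 25% of ranks, 18% (14.1 to 22.7) of the 306 members were at a gene end, against 38.9% (37 to 40.9) of the 2378 regions with a peak in all 3 lists. In the band from 50% to 75% the shares were 21.2% (14.8 to 29.4) and 48.3% (46.5 to 50.1). The remaining classes of regions lacking 1 list were closer. Regions that lacked WT alone were at a gene end in 22.9% of cases, a difference of −4.09 points (−7.79 to 0.1) that counting error alone can cover. Those that lacked KO alone reached 30.4%, a difference of −11.5 points (−15.4 to −7.19). The result for regions that lacked WT alone depended on the measure of place. By the share within 1 kb of a start in the RefSeq promoter table, members stood −5.41 points (−8.94 to −1.36) from them. This was beyond counting error, but rests on that incomplete table. From regions that lacked KO alone they stood −12.9 points (−16.6 to −8.67) by that measure.

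**Figure D3:**
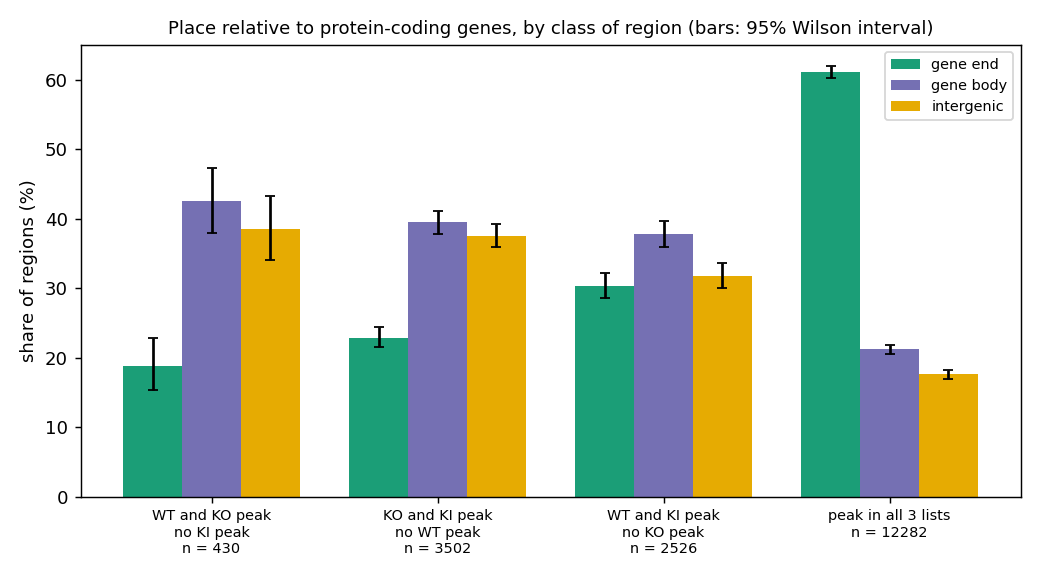
Share of regions at a gene end, in a gene body and between genes (y axis, percent) for the 430 members and the 3 other classes with peaks in at least 2 lists; error bars are 95% Wilson intervals. The members have the lowest gene-end share, 18.8%, and regions with a peak in all 3 lists the highest, 61.2%.

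Intergenic members lay a median of 27173 bp from the nearest protein-coding gene, 41 of the 166 within 10000 bp and 34 farther than 100000 bp. Of the intergenic members, 39 overlapped a gene of another class. Gene-body members sat in long genes, with a median of 121 kb against 87.2 kb for gene-body regions with a peak in all 3 lists and 93 kb for the weaker ones among them. Members were spread over all chromosomes: over the autosomes and X the share of regions without a KI peak ran from 2.37% on 19 to 4.99% on 18, with overlapping intervals, and on Y it was 1 of 9. Members seldom adjoined each other, with 4 pairs within 50 kb.

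Among these pairs, 2 intergenic regions lay past the end of Kit, the stem cell factor receptor that marks HSC, at 87845 and 105097 bp. The nearer one, chr5:75744567-75745081, scored 71.86 in WT and 91.15 in KO, and the farther one 57.38 and 75.48. The nearest KI peaks were 13236 and 29322 bp away. The other pairs were in Armc9 and at B3gnt7, in Patl2, and in Stat5b and Stat3. Patl2 is a regulator of RNA in oocytes, and B3gnt7 makes keratan sulphate.

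At the gene ends, 45 of the 81 members lay within 1 kb of a start in the RefSeq promoter table, and 93 genes had a member at an end. Of these genes, 64 had no KI peak within 1 kb of either end and 29 had one elsewhere at their ends. The 93 genes were chosen by a region without a KI peak, which largely sets these counts. Of all 8660 protein-coding genes with a WT and a KO gene-end peak, 83 had no KI gene-end peak. After H2-D1, the best-ranked were the transmembrane protein gene Tmem44 (91.37 in WT and 99.07 in KO), Vipr2 (143.4 and 83.67) and the zinc finger gene Zfp65 (98.13 and 78.99). Vipr2 encodes a receptor for vasoactive intestinal peptide, and its region also covered the start of Gm46383. The Zfp65 region also covered the start of Zfp85os. Next were Enpep, an aminopeptidase (80.71 and 79.2), Kif12, a kinesin (78.54 and 92.24), and Rras2, a RAS-family GTPase (78.09 and 108.43). The Rras2 region had a KI peak 182 bp away, and the Kif12 region none within 55869 bp.

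The remaining gene-end members of the best 15 scored 68.5 to 110.14. They were Rab3c, a vesicle GTPase, Asphd2, Gbp2, Mocos, which activates molybdenum enzymes, 1700012B09Rik, Unc13d, needed for the release of cytotoxic granules, Calb1, a calcium-binding protein, and the semaphorin Sema6a. A KI peak lay within 500 bp of 3 of the 15: Rras2, Unc13d (237 bp) and Sema6a (482 bp). Members lay at H2-D1, at Brd2 and H2-DMa, near H2-M10.6, in Igh (2 regions), near Klra13-ps and at Klre1, the Klr genes being a family of natural killer receptors. Regions at or near H2 genes made up 0.698% of members (3 regions) and 0.113% of the weaker regions with a peak in all 3 lists (6 regions). For Ighv segments the shares were 0.465% (2 regions) and 0.0938% (5 regions), and for Klr genes 0.465% (2 regions) and 0.075% (4 regions), numbers too small to compare. These families were picked after their names were seen, and their copies are alike or vary between mouse strains.

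Of the mTORC1, mTORC2 and upstream list (61 genes), 53 had a region with WT and KO peaks within or nearest to them, and 4 had a member. Of their 78 regions 5.13% (2.01 to 12.5) had no KI peak, against 2.8% (2.51 to 3.13) of the 10982 regions of all protein-coding genes. Beside Grb10, the members lay in Deptor, an inhibitor of both complexes, upstream of Prr5 and at the start of Prr5l, which encode related partners of mTORC2. The Deptor region scored 81.93 in WT and 63.23 in KO, with a KI peak 26242 bp away. The Prr5 region, 8646 bp before the gene, scored 72.8 and 100.55. The Prr5l region scored 53.03 and 119.69 and had a KI peak of 110.77 at 74 bp. Prr5l was thus a border case, while at the other three the nearest KI peak was 9785 bp or farther away.

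Among mTOR effectors, 4 of 36 genes with such a region had a member, and 7.55% (2.97 to 17.9) of their 53 regions lacked a KI peak. Mitf and Tfec are members of the family of TFEB, which controls lysosome genes. The Mitf region lay within the gene (55.97 and 65.3), 22047 bp from an annotated start, and the Tfec region over the start (58.83 and 80.14). Prkca and Prkce, protein kinase C genes whose products need mTORC2, held regions of 72.75 and 107.36, and of 71.54 and 68.45. The interval of this list began just above the 2.8% of all protein-coding genes, and that of the mTORC1, mTORC2 and upstream list included it. The lists were drawn up with earlier results known, so nothing particular to them is read from these shares. For every gene list here, the 2.8% of all protein-coding genes is also not matched for place. Over all regions with a WT and a KO peak, 6.57% in gene bodies and 1.07% at gene ends lacked a KI peak.

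Haematopoietic transcription factors held 10 members in 10 of the 87 genes with a region. Of their 157 regions 6.37% (3.5 to 11.3) lacked a KI peak, against 4.56% (3.31 to 6.25) of the 789 regions of all lists together and 2.8% of those of all protein-coding genes. The interval includes the first of these shares. Etv6, an ETS repressor that HSC need, had a region of 103.89 in WT and 83.46 in KO deep within the gene, with a KI peak 5897 bp away. Stat5b, which carries signals of thrombopoietin and other cytokines, had one at an annotated inner start (84.74 and 79.26). Near the start of Stat5a, 9091 bp from that region, WT, KO and KI all had a peak, of 174.46, 161.03 and 172.92. Ldb1, which bridges GATA1 and TAL1 complexes, had a region over an annotated inner start (70.28 and 75.48), with a KI peak 4923 bp away.

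The other seven were Elf4, Tcf12, Klf13, Stat3, Zeb2, Bach2 and Cbfa2t3, with WT scores of 53.83 to 82.2 and KO scores of 51.16 to 100.16. Elf4 encodes an ETS factor, Tcf12 an E protein and Cbfa2t3 a corepressor of the TAL1 complex. The Klf13 region had a strong KI peak of 469.69 at 61 bp, and the Stat3 region one of 60.93 at 1389 bp. Tcf12 had no KI peak within 137200 bp of its region.

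**Figure D4:**
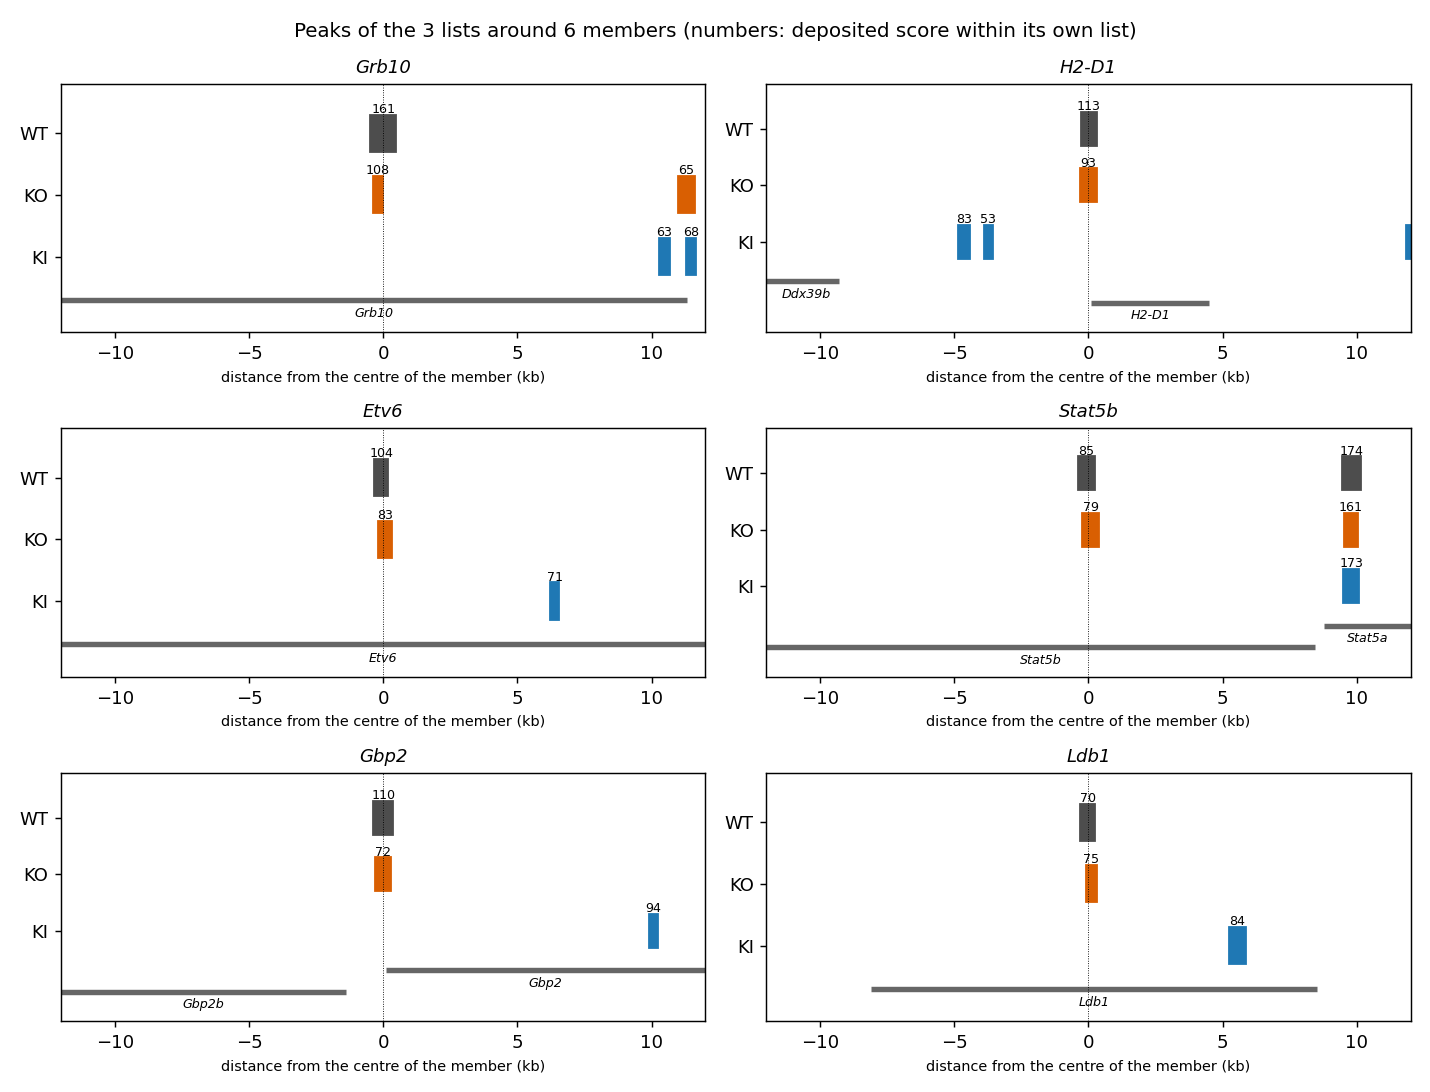
Peaks of the WT, KO and KI lists within 12 kb of the centre of 6 members (x axis, distance in kb), with protein-coding genes as grey lines and each peak's deposited score above it. At the centre of each panel WT and KO have a peak and KI has none, while all 3 lists have a peak near the start of Stat5a in the Stat5b panel.

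Adhesion, migration and cytoskeleton genes held members in 9 of 73 genes, and 6.98% (3.71 to 12.7) of their 129 regions lacked a KI peak, an interval that again includes the 4.56% of all lists together and begins above the 2.8% of all protein-coding genes. They included the integrin genes Itga2 (129.68 in WT and 55.79 in KO), Itga9 (66.0 and 62.08) and Itgb2 (68.05 and 60.08). Plxnc1 (58.88 and 64.5) was a border case. All members of this list but that at Plxnc1 lay in gene bodies. Over all regions with a WT and a KO peak, 6.57% of those in gene bodies lacked a KI peak. The 2.8% is not matched for place, and the part of place in the list shares was not tested.

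On the list of chromatin regulators 0 of 57 genes with a region had a member, which allows a share of up to 5.26%. The upper Wilson bound over their 82 regions, 4.48%, lay above the 2.8% of all protein-coding genes. The list does not hold Atxn7, Kat2a or the bromodomain gene Brd2, which have a member within the gene, at an end and over an annotated inner start. Cytokine and growth factor signalling held 2 in 92 genes, Tnfaip8 and the phosphatase Ptpn1. Cell cycle, p53 and apoptosis genes held 3 in 57: Cdk6, a kinase of G1 entry, Cdk14 and Btg3. Neither group's region share, 1.5% (0.413 to 5.32) and 4.17% (1.43 to 11.5), stood outside counting error of that over all genes.

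Interferon and innate immunity genes held 2 in 24, and 7.69% (2.14 to 24.1) of their 26 regions lacked a KI peak, an interval that includes the 2.8% of all protein-coding genes. Gbp2, an interferon-induced GTPase, had a member over its start (110.14 in WT and 72.42 in KO) with the nearest KI peak 9528 bp away. Dhx58, a helicase that modulates sensing of double-stranded RNA such as poly(I:C), shared its region (62.18 and 51.4) with the end of the acetyltransferase gene Kat2a. Grb10 was the only one of 17 imprinted genes with a region to hold a member. Of the 26 regions of these genes 3.85% (0.682 to 18.9) lacked a KI peak, an interval that also includes that 2.8%.

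Of the 8 cell type lists, 5 held no member, but these had only 2 to 7 genes with a WT and KO region, and over all protein-coding genes 3.06% of such genes had a member. The others held Etv6 (stem and progenitor), Mmp9, a neutrophil gelatinase (57.55 and 79.31), and Ccr3, an eosinophil chemokine receptor (59.5 and 51.13). As a check of the labelled cells, peaks at a gene end were found for 14 of 30 stem and progenitor markers with WT, 11 with KO and 18 with KI. Erythroid markers had 5, 9 and 13 of 20, and granulocyte and monocyte markers 6, 3 and 12 of 25. Megakaryocyte and platelet markers had 7, 4 and 8 of 18, B lymphoid markers 2, 1 and 3 of 16. T and NK lymphoid markers had 2, 4 and 5 of 20. Mast cell, basophil and eosinophil markers had 1, 0 and 2 of 11, and endothelial and stromal markers 1, 4 and 4 of 16. KI had the highest number in every list but the last, where it equalled KO. Its peak list was also the longest (28391 peaks, against 17316 in WT and 19189 in KO). The part of these markers in the members was not tested.

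The 56 promoter windows under members, of 300 bases each, were poorer in G and C than other accessible promoters. Their median GC content was 57.2%, against 61% in the 2593 windows under weaker regions with a peak in all 3 lists and 53% over all 32544 windows. The median ratio of observed to expected CpG was 0.637, against 0.773 and 0.387. The letters GGGCGG on either strand occurred in 46.4% (34 to 59.3) of member windows, 65.1% (63.2 to 66.9) of the weaker windows and 35.9% of all. GCGCANGCG, part of the NRF1 motif, occurred in 1 of 56 (1.79%, 0.316 to 9.45) against 13.1% (11.8 to 14.4) and 6.29%. Some of the 56 windows overlap each other, as do those of Acin1, Synj2, Elavl4 and Nfkb2. The intervals count such windows as separate, and the medians have no interval. A window counted in full even where a member covered only part of it. Members covered 5 and 11 of the 300 bases of the Synj2 windows and 78 of that of Gm46383.

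Most other motifs lay within counting error of the weaker windows. CCGGAAG of ETS factors occurred in 16.1% of member windows, 20.2% of weaker windows and 8.91% of all, and CCAAT in 32.1%, 34.1% and 37.4%. TGANTCA of AP-1 occurred in 10.7% (5 to 21.5), 4.55% (3.81 to 5.42) and 7.79%. Its member interval began just above the 4.55% of the weaker windows, though it overlapped their interval. AGATAA of GATA factors (8.93%), TGTGGT (14.3%), the E-box CACGTG (8.93%), TATAAA (7.14%), AAGATGGCG of YY1 (3.57%) and AGGGGGCGC of CTCF (3.57%) had intervals that included the weaker share. GGAA was in all 56 member windows and in 96% of all windows, and TGACGTCA of CREB was in 0 of 56, with an upper bound of 6.42%. GGAA is contained in CCGGAAG. A match is a description of letters and does not show binding.

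**Figure D5:**
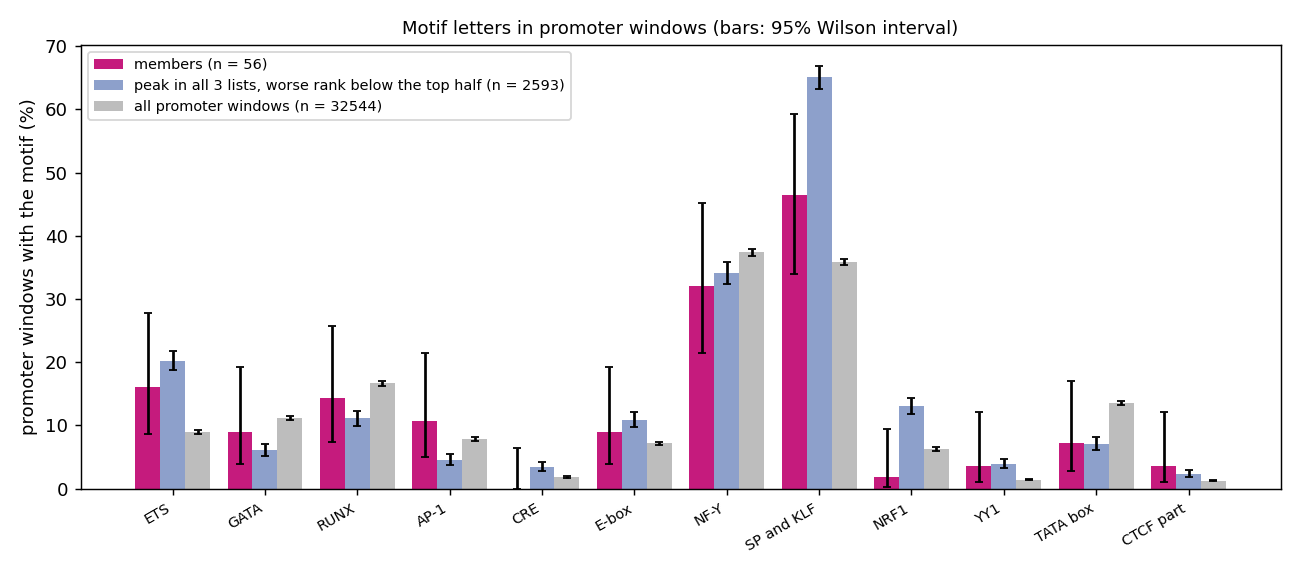
Share of promoter windows with each motif (y axis, percent, either strand) in the 56 windows under members, in windows under regions with a peak in all 3 lists and a worse rank in the lower 50%, and in all windows; error bars are 95% Wilson intervals. The SP and KLF letters (46.4% against 65.1%) and the NRF1 letters (1.79% against 13.1%) are the pairs whose intervals for members and weaker windows do not overlap.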

How the data were processed

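ATAC-seq peak lists of 3 libraries were used, 1 per genotype. The other 12 samples, RNA-seq, were not analysed here. Each deposited list has 5 columns and no header, with 1 score per peak given by the authors' caller, MACS by the peak names. The genome build mm10 and the tool CASAVA are named per the submitters' processing notes. For aligner, caller, duplicates and any transposase shift, nothing is stated: not given in the sources used here. Scores were used only within a list.

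Lists (chromosomes 1 to 19, X and Y) were merged at a gap of 0 bp, tested on simulated peaks and against bedtools 2.31.1. The highest peak of a list gave a region its score. Genes (21887 protein-coding for place, all genes of the table for names, up to 50 kb) and promoter windows came from RefSeq GRCm38.p6. The promoter table is not complete, so counts at starts cover its entries only. It gave no start for any of the 18 members on chromosome 18. All 809 symbols of the 17 gene lists matched, 2 by an older name. Intervals (Wilson, Newcombe, scipy 1.17.1) cover counting error only.

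Alternatives changed the score minimum, list size, merging gap, overlap, gene-end window, gene classes and ranking. Members, lists and measures were chosen with earlier results of these data known. Genes were named by rule: members in the upper 50% of both lists, the 15 best at gene ends, list genes, pairs within 50 kb, and members nearest a limit or a KI peak. Names outside it are marked. Some members that the rule names are not reported here.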

Additional observations from a re-analysis of the deposited data

How the results depend on the processing

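The number of members rests on the calling threshold and on list length. It was 194 with a score of at least 75 in all lists (42 of the 430 members remained) and 1094 at equal list size (349 remained), and 385 to 451 under 5 other settings of merging, overlap and distance, of which the demand for no KI peak within 1 kb was added after the data were examined. Members in the upper 50% of both lists numbered 6, against 2 at the score minimum of 75, 55 at equal list size, 38 with lists ranked by peak width, 4 with no KI peak within 1 kb, and 0 for the top 25% of both lists. All 6 stayed members at that minimum and at equal list size. The gene-end share of 18.8% became 27.8% at the score minimum, 26.1% at equal list size, 14.7% and 24.9% with windows of 500 and 2500 bp, and 27.2% with all genes of the table. In the same settings, regions with a peak in all 3 lists stood at 70.6%, 64.1%, 58.9%, 65.1% and 67%. The intergenic share of 38.6% became 27.7% with all genes and kept within its interval in the other settings run. Depth is unknown, so what a deeper KI library would show cannot be told. No paired analysis was possible because each genotype had 1 ATAC-seq library.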
